A study of Homo sapiens with 14 samples.

Results

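MALAT1, NEAT1 and KCNQ1OT1 are long noncoding RNAs of the nucleus, and they were chosen by name as 3 of the 58434 gene symbols counted in all 14 libraries. In DAP5-silenced cells the light polysome pool held more MALAT1 and NEAT1 than the heavy pool of the same culture, by a log2 difference of 1.88 ± 0.30 (SE) for MALAT1 and 1.49 ± 0.23 for NEAT1. In control cells the same light-to-heavy differences were 0.24 ± 0.31 and 0.19 ± 0.35, with the control cultures on either side of 0 under TMM scaling and both above 0 when scaled to library size. The difference between the lines, 1.59 ± 0.49 for MALAT1 and 1.18 ± 0.44 for NEAT1, did not pass the test (adjusted p = 0.0546 and 0.0992, edgeR quasi-likelihood test). KCNQ1OT1 was close to the limit of counting, with 6 to 21 reads per library.

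MALAT1 is an abundant RNA of nuclear speckles, the bodies where splicing factors are stored. NEAT1 is the scaffold of paraspeckles, nuclear bodies built on its long form with proteins such as NONO and SFPQ. KCNQ1OT1 is made from an imprinted domain and is known for silencing neighbouring genes on the chromosome it comes from. None of them encodes a known protein, so an mRNA's usual reason for sedimenting with several ribosomes is not described for them. In a sucrose gradient a large RNA-protein particle can also reach the depth of polysomes without ribosomes, and the pools give no measure of that.

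The libraries came from MDA-MB-231, an established triple-negative breast cancer cell line. The cells carried a doxycycline-inducible non-silencing shRNA (shNSi) or an shRNA against DAP5 (shDAP5), and both lines received doxycycline at 1 µg/mL for 6 days. DAP5, encoded by EIF4G2, is an initiation factor related to eIF4G that lacks its binding site for the cap-binding protein eIF4E. Total, light polysome and heavy polysome RNA was sequenced from 2 cultures of each line, and the shNSi cultures also gave a moderate polysome pool, making 7 groups. The shRNA vector carries a fluorescent reporter, cells were sorted on it after drug selection, and the sources used here name no clone. The study describes the replicates as independent, and each group has 2 cultures. The fits moderate the spread of each gene toward that of all genes tested. A p-value thus does not measure the spread between a gene's own cultures alone. The labels give a lysis buffer meant for cytoplasm for every library, total RNA included, and how much nuclear RNA it released was not tested. Labels and run codes disagree for some shDAP5 libraries: those named light bear the code that marks the moderate pool in shNSi, and those named total polysome bear the code of total RNA. They were taken as light and total.

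Library totals ranged from 25899838 to 30795910 counts. EIF4G2 was lower in shDAP5 total RNA, at 525 and 730 CPM (read counts scaled by TMM and to a library of fixed size) against 1391 and 1358, a log2 difference of -1.11 ± 0.18 (edgeR quasi-likelihood test, adjusted p = 0.0172). The call was lost with library size in place of TMM (-1.07, adjusted p = 0.0501) and without shDAP5 culture 1 (-0.90, adjusted p = 0.680), where no gene was called, and held with DESeq2 and without any other culture. The line's markers were in place in total RNA, with VIM at 3958 to 5230 CPM and AXL at 408 to 925 CPM, while PGR had 0 reads in each total library, CDH1 had 2 to 7 and ESR1 had 7 to 11. GATA3, listed among the genes low in this line, was at 10.4 to 13 CPM. Values are shares of the reads, so less RNA in each cell and fewer cells carrying it cannot be told apart.

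All 3 genes lie on chromosome 11 (GRCh38, GENCODE 29). NEAT1 covers chr11:65422774-65445540 and MALAT1 chr11:65497688-65506516, both on the plus strand with 52147 bases between them. KCNQ1OT1 covers chr11:2608328-2699994 on the minus strand, inside the span of KCNQ1, which runs the other way. KCNQ1 had 0 to 3 reads per library and KCNQ1-AS1 had 0 to 4, so few reads stood at the overlapping genes. The name under which the counts were deposited points to counting on the reverse strand, and no other source used here gives the strand setting. The union of annotated exons was 8829 bases for MALAT1, 22767 for NEAT1 and 91667 for KCNQ1OT1.

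The ends of the annotated transcripts are shown because the short and long forms of NEAT1 differ there and the gene counts add such forms together. The last 30 bases of 4 transcripts are given 5′ to 3′ from the plus strand of MALAT1 and NEAT1 and from the minus strand of KCNQ1OT1, with the polyadenylation signal AATAAA in capitals.
MALAT1-202: tttgtgtAATAAAaatggagaagctctaaa
NEAT1-208: tcttcccctttacagcacaAATAAAgtttg
NEAT1-202: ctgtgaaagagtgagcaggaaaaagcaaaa
KCNQ1OT1-201: tagaaagatgaaaactatgaaaactgacta
The short NEAT1 transcript of 2994 bases held the signal 5 bases before its end, and the long one of 22743 bases did not hold it in this window. MALAT1 held it 17 bases before the annotated end. Of 206659 annotated transcripts, 21.3% held these letters in their last 30 bases when read on the transcript strand. As background, the long NEAT1 form and most MALAT1 are not polyadenylated, since RNase P cuts their 3′ ends and a triple helix protects them. The kind of RNA selection before sequencing is not given in the sources used here, and the forms of NEAT1 cannot be told apart in gene counts. The longest open reading frame ran over 70 codons in MALAT1-202, 97 in the short and 137 in the long NEAT1 transcript and 210 in KCNQ1OT1-201.

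The levels of MALAT1 lay between 3.20 and 20.0 CPM, with a median of 11.2 CPM and 83 to 644 reads. In shNSi cultures 1 and 2 MALAT1 was at 14.6 and 11.3 CPM in total RNA, 12.7 and 10.7 CPM in the light pool, 6.46 and 7.62 CPM in the moderate pool and 7.37 and 13.9 CPM in the heavy pool. In shDAP5 cultures 1 and 2 it was at 13.9 and 11.1 CPM in total RNA, 20.0 and 19.2 CPM in the light pool and 8.50 and 3.20 CPM in the heavy pool. The shDAP5 light libraries were the highest of the 14, above every shNSi library, and shDAP5 heavy culture 2 was the lowest. By group means the order ran from shDAP5 light (19.6 ± 0.60 CPM, SD, n = 2) through shNSi total (12.9 ± 2.35), shDAP5 total (12.5 ± 2.04), shNSi light (11.7 ± 1.43), shNSi heavy (10.6 ± 4.60) and shNSi moderate (7.04 ± 0.82) to shDAP5 heavy (5.85 ± 3.75). Only shDAP5 light was clear of its neighbour in this order, and the ranges of all other neighbours overlapped.

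NEAT1 had 327 to 1923 reads, which is 12.6 to 63.8 CPM with a median of 38.5 CPM. In shNSi cultures 1 and 2 it was at 63.8 and 53.3 CPM in total RNA, 34.5 and 47.8 CPM in the light pool, 19.5 and 36.1 CPM in the moderate pool and 19.9 and 63.0 CPM in the heavy pool. In shDAP5 cultures 1 and 2 it was at 38.7 and 53.0 CPM in total RNA, 38.3 and 42.8 CPM in the light pool and 16.9 and 12.6 CPM in the heavy pool. The shDAP5 heavy libraries were the lowest of the 14. The shNSi heavy cultures differed from each other more than any other pair, so that culture 2 stood with total RNA and culture 1 with the moderate pool. The group means ran from shNSi total (58.5 ± 7.44 CPM, SD, n = 2) through shDAP5 total (45.8 ± 10.1), shNSi heavy (41.4 ± 30.5), shNSi light (41.1 ± 9.36), shDAP5 light (40.6 ± 3.23) and shNSi moderate (27.8 ± 11.7) to shDAP5 heavy (14.7 ± 3.0). Neighbours from shDAP5 total to shDAP5 light overlapped, the total groups were apart by less than 1 CPM at their nearest cultures, and shDAP5 light, shNSi moderate and shDAP5 heavy did not overlap.

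KCNQ1OT1 had 19 and 12 reads in shNSi total, 15 and 7 in light, 9 and 10 in moderate and 11 and 20 in heavy. In shDAP5 it had 13 and 21 reads in total, 6 and 10 in light and 7 and 7 in heavy. A count of 6 has an exact 95% Poisson interval of 2.20 to 13.1 and a count of 21 one of 13 to 32.1, for counting error only. The intervals of the lowest and the highest library thus met, and an order of its group levels could not be read at this depth. It entered the fit of the heavy pools through its shNSi counts, as both shDAP5 heavy libraries were under 10 reads, so no test of it is given between heavy pools. In shDAP5 cells it likewise entered through total RNA, and no test of it is given for the pools of that line against total or for the differences between lines, which rest on these groups.

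**Figure D1:**
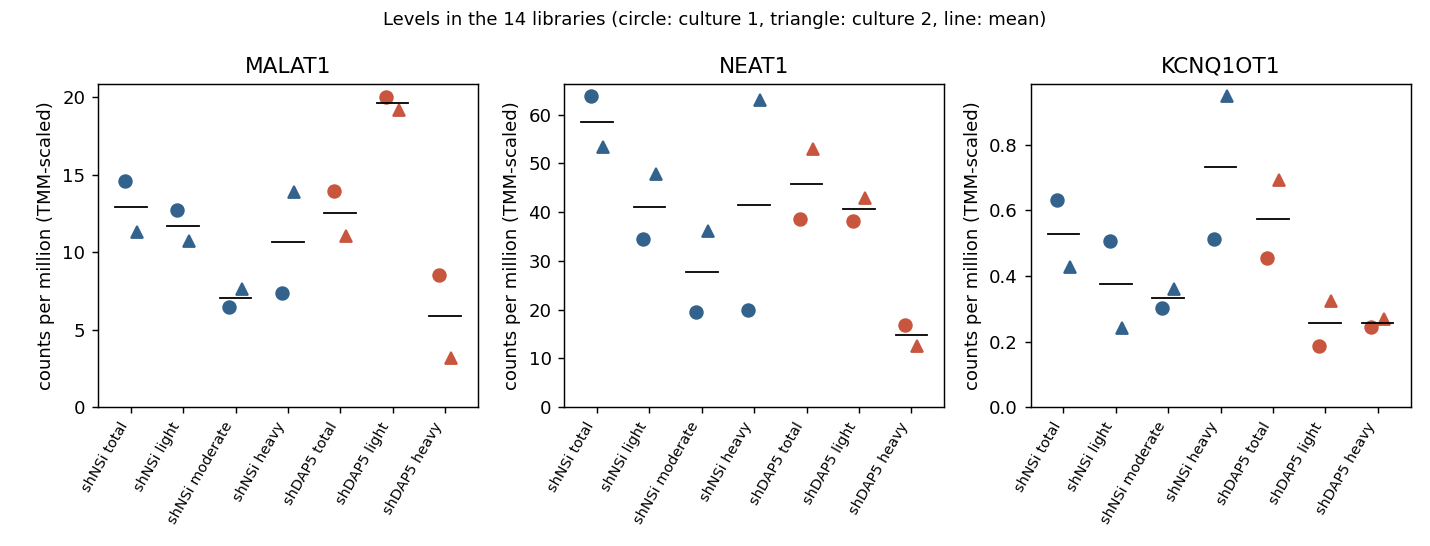
TMM-scaled CPM of MALAT1, NEAT1 and KCNQ1OT1 (vertical axes from 0, a scale of its own for each gene) in the 7 groups, shNSi in blue and shDAP5 in red; circles are culture 1, triangles culture 2 and lines the mean of the 2 cultures. MALAT1 was highest in the shDAP5 light libraries at 20.0 and 19.2 CPM, and NEAT1 was lowest in the shDAP5 heavy libraries at 16.9 and 12.6 CPM.

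Per kilobase of exon union, NEAT1 stood at 2.57 ± 0.33 CPM per kb in shNSi total RNA (SD, n = 2), MALAT1 at 1.47 ± 0.27 and KCNQ1OT1 at 0.0058 ± 0.0016. In shDAP5 total RNA the levels per kilobase were 2.01 ± 0.44 for NEAT1 and 1.41 ± 0.23 for MALAT1. In the shDAP5 light pool MALAT1 was the higher of the pair, at 2.22 ± 0.07 against 1.78 ± 0.14 CPM per kb. Reads of the short NEAT1 form fall on a small part of the length used here, so its value per kilobase is low if that form is the main one. The ratio of NEAT1 to MALAT1 reads in a library ran from 1.91 in shDAP5 light culture 1 to 4.79 in shDAP5 total culture 2. MALAT1 and NEAT1 together took 0.0015% to 0.0084% of the reads. By read count MALAT1 ranked between 8306 and 8988 from the top in total RNA and NEAT1 between 3535 and 5112, among 21517 to 21909 genes with a read. MALAT1, among the most abundant RNAs of whole cells, was thus a middling gene in these libraries.

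In control cells the question was where along the gradient the nuclear RNAs lay, and none of the 3 passed the test in any of 6 comparisons of shNSi pools (edgeR quasi-likelihood test with a term for each culture, Benjamini-Hochberg over all genes). NEAT1 came nearest in the moderate pool against total RNA, at -1.25 ± 0.35 (adjusted p = 0.0575; 5 of 8 alternatives under the threshold), where MALAT1 was at -0.93 ± 0.31 (adjusted p = 0.0920; 1 of 8 alternatives under it). Of all genes 3.81% were called there. In the light pool against total RNA, where 14.5% of genes were called, MALAT1 was at -0.15 ± 0.30 (adjusted p = 0.744), NEAT1 at -0.60 ± 0.34 (adjusted p = 0.232) and KCNQ1OT1 at -0.50 ± 0.56 (adjusted p = 0.549). In the heavy pool against total RNA, with 36.6% of genes called, MALAT1 was at -0.39 ± 0.31 (adjusted p = 0.319), NEAT1 at -0.79 ± 0.35 (adjusted p = 0.0896; 4 of 8 alternatives under the threshold) and KCNQ1OT1 at 0.38 ± 0.54 (adjusted p = 0.601).

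Between the pools of control cells, MALAT1 was at 0.78 ± 0.30 in light over moderate (edgeR, adjusted p = 0.0689), where 27.1% of genes were called and NEAT1 was at 0.65 ± 0.34 (adjusted p = 0.167). In moderate over heavy, with 36% of genes called, the values were -0.54 ± 0.31 (adjusted p = 0.189) for MALAT1 and -0.46 ± 0.35 (adjusted p = 0.323) for NEAT1. In light over heavy, with 65.6% of genes called, they were 0.24 ± 0.31 (adjusted p = 0.494) and 0.19 ± 0.35 (adjusted p = 0.637), and KCNQ1OT1 was at -0.88 ± 0.57 (adjusted p = 0.182). The cultures went apart here: log2 light over heavy was 0.79 in culture 1 and -0.37 in culture 2 for MALAT1, and 0.80 and -0.40 for NEAT1. Scaled to library size they were 1.23 and 0.16 for MALAT1 and 1.32 and 0.15 for NEAT1. These values add 1 to each CPM, which those under TMM do not, so their sizes are not like for like. Culture 2 turned above 0 while a gap between the cultures stayed. Log2 heavy over total of NEAT1 was -1.68 in culture 1 and 0.24 in culture 2, and that of MALAT1 was -0.99 and 0.30. On library size, again with 1 added, culture 2 was at -0.29 for NEAT1 and -0.21 for MALAT1. Without shNSi culture 1 the light-over-heavy values were -0.28 and -0.30, and without culture 2 NEAT1 stood at 0.92 (adjusted p = 0.0314, between 0.0314 and 0.935 over 8 alternatives), with 55.4% of all genes called. Wherever a culture is left out, here and below, its line has 1 library in each pool, the spread comes from the cultures of the other line alone, and the lone library is assumed to vary like them.

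Across the shNSi cultures, long noncoding genes as a class also lay further toward the light pool in culture 1, by less than MALAT1 and NEAT1. For 375 long noncoding genes of at least 1 CPM on average, the median log2 of light over heavy was 1.39 in culture 1 and 0.72 in culture 2, beside -0.46 and -0.20 for 11497 protein-coding genes. The class medians parted in light over total, at 0.68 and 0.081, and were near each other in heavy over total, at -0.71 and -0.59. In the moderate pool the long noncoding medians were -0.23 and -0.66. The normalization factors of the shNSi heavy libraries, 0.763 and 0.702, were the lowest of the 14. On the scale of library size the median of all genes in light over heavy moved from 0.06 to 0.54, and MALAT1 stood at 0.73 (adjusted p = 0.0447).

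In DAP5-silenced cells the 2 RNAs lay toward the light pool. Light over heavy was 1.88 ± 0.30 for MALAT1 (edgeR, adjusted p = 0.000574) and 1.49 ± 0.23 for NEAT1 (adjusted p = 0.000548), on the log2 scale, and both cultures showed it, with 1.24 and 2.58 for MALAT1 and 1.18 and 1.76 for NEAT1. KCNQ1OT1 was at -0.01 ± 0.59 (adjusted p = 0.993). Here 50.7% of all genes were called, so 2 of 3 members is a share near the background. Both calls were lost without shDAP5 culture 2, at 1.22 (adjusted p = 0.0532, the highest over 8 alternatives for MALAT1) and 1.17 (adjusted p = 0.103, the highest over 8 for NEAT1), where 19.4% of all genes were called, and held in the 7 others.

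In the shDAP5 heavy pool against total RNA NEAT1 fell by 1.69 on the log2 scale (SE 0.23, edgeR adjusted p = 0.0219). It was among 169 genes called, 1.08% of those tested, all of them lower. Log2 heavy over total of NEAT1 was -1.20 and -2.07 in the 2 cultures. MALAT1 was at -1.24 ± 0.29 (adjusted p = 0.0762), with cultures at -0.71 and -1.79. The NEAT1 call was lost without shDAP5 culture 1 (-2.07, adjusted p = 0.456) and without culture 2 (-1.20, adjusted p = 0.823), fits in which no gene was called, and adjusted p ran from 1.26e-09 to 0.823 over 8 alternatives. In light over total, where 32.2% of genes were called, MALAT1 was at 0.65 ± 0.28 (adjusted p = 0.0999) and NEAT1 at -0.20 ± 0.22 (adjusted p = 0.513). NEAT1 thus stood near its total level in the shDAP5 light pool and below it in the heavy pool.

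**Figure D2:**
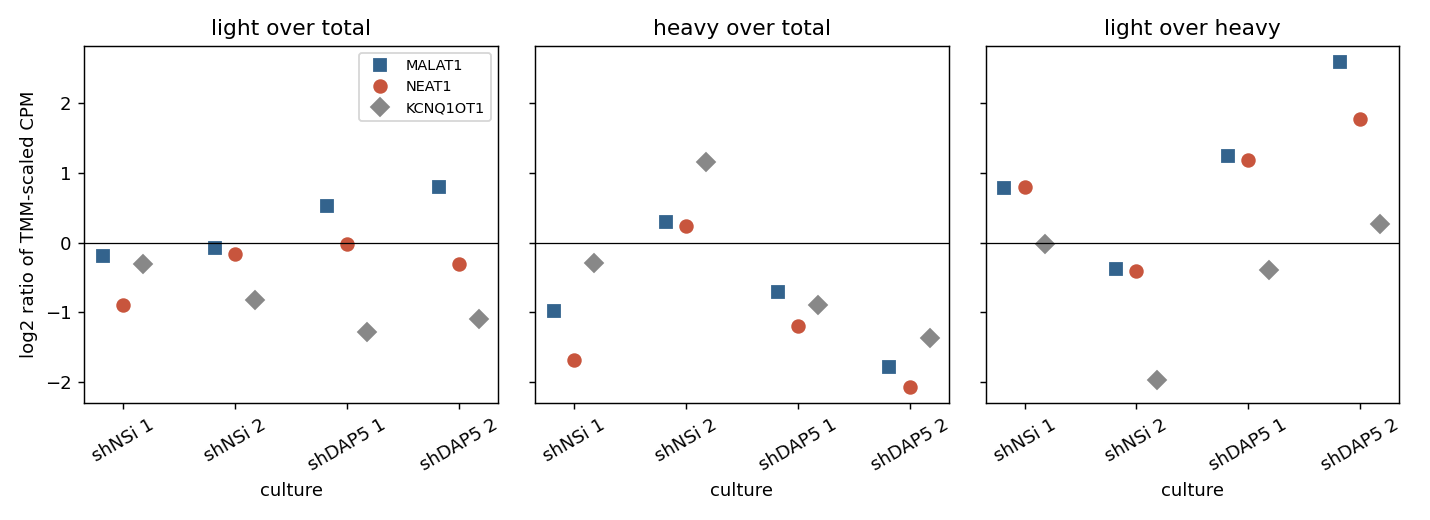
Log2 ratios of TMM-scaled CPM (vertical axis) in each of the 4 cultures (horizontal axis) for light over total, heavy over total and light over heavy; squares are MALAT1, circles NEAT1 and diamonds KCNQ1OT1. In light over heavy MALAT1 and NEAT1 lay above 0 in both shDAP5 cultures, from 1.18 to 2.58, and on either side of 0 in the shNSi cultures, both of which lay above 0 when scaled to library size.

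The comparison of lines asked whether DAP5 silencing changed the amount of each RNA in a given fraction, and NEAT1 in the heavy pool passed. NEAT1 was lower in the shDAP5 heavy pool, at 16.9 and 12.6 CPM against 19.9 and 63.0 CPM, a log2 difference of -1.30 ± 0.36 (edgeR quasi-likelihood test, adjusted p = 0.00364). The groups did not overlap, but the nearest libraries were at 16.9 and 19.9 CPM. Of all genes 30.9% were called in this comparison. MALAT1 was at -0.67 ± 0.39 (adjusted p = 0.175) with overlapping groups. Only the shNSi gradients gave a moderate pool, so the heavy pools of the lines may not span the same fractions, which was not tested. With shNSi heavy and moderate summed 2.77% of all genes were called, and NEAT1 was not among them.

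The NEAT1 value in the heavy pool rested on shNSi culture 2. Without that culture it was -0.29 (adjusted p = 0.675), and without shDAP5 culture 2 it was -1.13 (adjusted p = 0.264). The fits without these cultures called 14.1% and 0.0134% of all genes, so almost no gene kept a call in the second. Over 12 alternatives its adjusted p ran from 8.47e-06 to 0.679, and 6 of them passed. MALAT1 was under the threshold without shNSi culture 1 (-1.15, adjusted p = 0.0353; 23.7% of all genes called) and without shDAP5 culture 1 (-1.60, adjusted p = 0.0170; 19.9% called), and was at -0.19 (adjusted p = 0.809) without shNSi culture 2 and at -0.16 (adjusted p = 0.852) without shDAP5 culture 2, over a range of 0.0170 to 1.00 in 12 alternatives. An exact permutation test of 2 cultures against 2 cannot go below 0.333, so no single-gene permutation test could pass.

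In the light pool MALAT1 was at 20.0 and 19.2 CPM in shDAP5 against 12.7 and 10.7 CPM in shNSi, with no overlap, and the log2 difference was 0.74 ± 0.27 (edgeR, adjusted p = 0.541). NEAT1 was at -0.03 ± 0.27 (adjusted p = 0.984) and KCNQ1OT1 at -0.56 ± 0.68 (adjusted p = 0.823). No gene at all was called in this comparison, 0%, with 1330 of 15529 at an unadjusted p under 0.05, MALAT1 among them, while DESeq2 called 105 genes and limma 0. MALAT1 was under the threshold without shNSi culture 1 (0.85, adjusted p = 0.00487), where 28.9% of all genes were called, and with the shNSi moderate pool as the control (1.48, adjusted p = 0.0148), where 25.5% were, over a range of 0.00487 to 1.00 in 11 alternatives. In total RNA, where 0.354% of genes were called, the differences were -0.03 ± 0.25 for MALAT1 (adjusted p = 0.986), -0.33 ± 0.21 for NEAT1 (adjusted p = 0.574) and 0.14 ± 0.53 for KCNQ1OT1 (adjusted p = 0.958).

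A call in 1 line and not in the other does not show a difference between lines, so the difference was tested as an interaction of pool and shRNA. In light over heavy, a comparison added after the data were seen, MALAT1 differed between lines by 1.59 ± 0.49 (edgeR, adjusted p = 0.0546) and NEAT1 by 1.18 ± 0.44 (adjusted p = 0.0992), so neither passed. Of all genes 6.75% were called, and 0% with shNSi heavy and moderate summed. MALAT1 stood at the edge of the threshold, and 8 of 12 alternatives took it past, the replicate block among them (1.59, adjusted p = 0.0480), over a range of 1.42e-05 to 0.793. For NEAT1 3 of 12 did, over 0.000350 to 0.799. Without shNSi culture 1 the values were 2.14 (adjusted p = 0.000540) for MALAT1 and 1.76 (adjusted p = 0.00387) for NEAT1, with 17.8% of all genes called, and without shDAP5 culture 1 MALAT1 was at 2.32 (adjusted p = 0.0145), with 4.79% called. Without shNSi culture 2 they were lower, at 0.98 (adjusted p = 0.226) and 0.57 (adjusted p = 0.521), with 4.51% called, and without shDAP5 culture 2 at 0.93 (adjusted p = 0.793) and 0.89 (adjusted p = 0.799), with 0.0121% called.

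In heavy over total, the measure of translation efficiency for an mRNA, the lines differed by -0.74 ± 0.42 for MALAT1 (edgeR, adjusted p = 0.240) and -0.78 ± 0.55 for NEAT1 (adjusted p = 0.381), where 13.1% of genes were called. With shNSi heavy and moderate summed 0% of genes were called. NEAT1 turned to 0.20 without shNSi culture 2 and was under the threshold without shNSi culture 1, at -1.77 (adjusted p = 0.0383, over a range of 0.0383 to 1.00), where 3.59% of all genes were called. MALAT1 was under it without shDAP5 culture 1, at -1.28 (adjusted p = 0.0167, over a range of 0.0167 to 1.00), where 28.5% were, and was at -0.095 (adjusted p = 0.971) without shNSi culture 2 and -0.27 (adjusted p = 0.708) without shDAP5 culture 2. In light over total no gene was called, 0%, with 833 genes at an unadjusted p under 0.05, and DESeq2 and limma called 0 as well. MALAT1 was at 0.79 ± 0.23 (adjusted p = 0.879) and NEAT1 at 0.35 ± 0.25 (adjusted p = 0.882). Without shNSi culture 1 MALAT1 was at 0.74 (adjusted p = 0.0373, over a range of 0.00243 to 1.00), where 12.3% of all genes were called. These comparisons and those of single fractions share libraries, and so their values are not separate evidence.

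**Figure D3:**
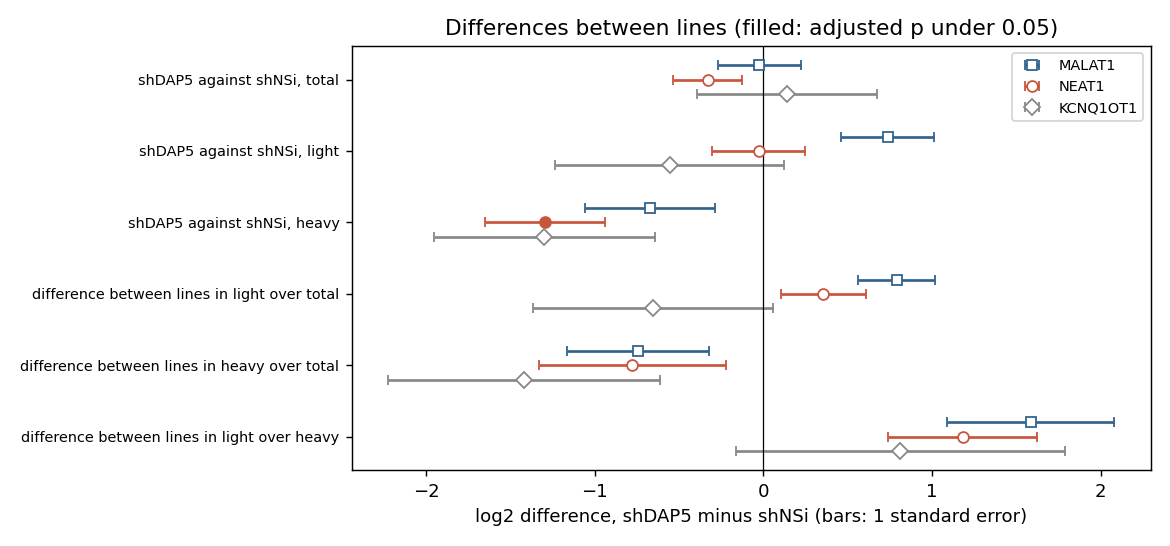
Log2 difference of shDAP5 minus shNSi (horizontal axis) with bars of 1 standard error for the 3 RNAs in total, light and heavy libraries and in the ratios of pools; filled symbols have an adjusted p under 0.05. NEAT1 in the heavy pool, at -1.30, is the filled symbol, KCNQ1OT1 is drawn also where it entered only through its libraries with more reads and is not tested here (the heavy pool and the ratios), and MALAT1 in light over heavy lies furthest above 0, at 1.59.

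The place of the members among long noncoding genes was read over the 375 such genes that averaged 1 CPM or more in the 14 libraries, a choice made after seeing the data. The filter of the fits also passed genes through light or total libraries alone. Those that passed through light libraries alone had to lie toward the light pool. Light over heavy had a median log2 of 1.64 over the 375 long noncoding genes in shNSi cells and -0.29 over 11497 protein-coding genes. In shDAP5 cells the medians were 1.47 and -0.19 (11494 protein-coding genes). These medians come from the fits of counts, normalized over the libraries of each comparison. The per-culture shNSi values given earlier used log2 of CPM plus 1, scaled over all 14 libraries together. The long noncoding median of shNSi lies above its per-culture values, and the protein-coding one lies between them. What this difference comes from was not tested. In shNSi cells 5.6% of the 375 long noncoding genes lay at or below MALAT1 and 5.07% at or below NEAT1. In shDAP5 cells 79.2% lay at or below MALAT1 and 51.5% at or below NEAT1. The place of KCNQ1OT1 was not read at its depth.

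Against total RNA the heavy pool of shNSi cells had a median of -1.11 over the same 375 genes and that of shDAP5 cells one of -0.61. NEAT1 at -1.69 and MALAT1 at -1.24 in shDAP5 cells had 3.47% and 12.3% of these long noncoding genes at or below them, and 0% and 0.339% of protein-coding genes. In the heavy pool of shDAP5 against shNSi the median was 0.69 over the 373 of these genes that were tested, with 21.4% called higher, where 14.2% of all genes were, and 1.34% called lower, where 16.7% of all genes were. NEAT1, at -1.30, lay on the other side of 0 from that median, with 0.804% of these genes at or below it, and MALAT1, at -0.67, had 4.29%. In the light pool of shDAP5 against shNSi the median was 0.29 and MALAT1, at 0.74, lay above it.

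The shDAP5 libraries titled light lay nearer the shNSi light pool than the moderate pool in this class. Over the 375 genes light over total had a median of 0.79 in shDAP5 and of 0.52 in shNSi, and the shNSi moderate pool had -0.71.

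**Figure D4:**
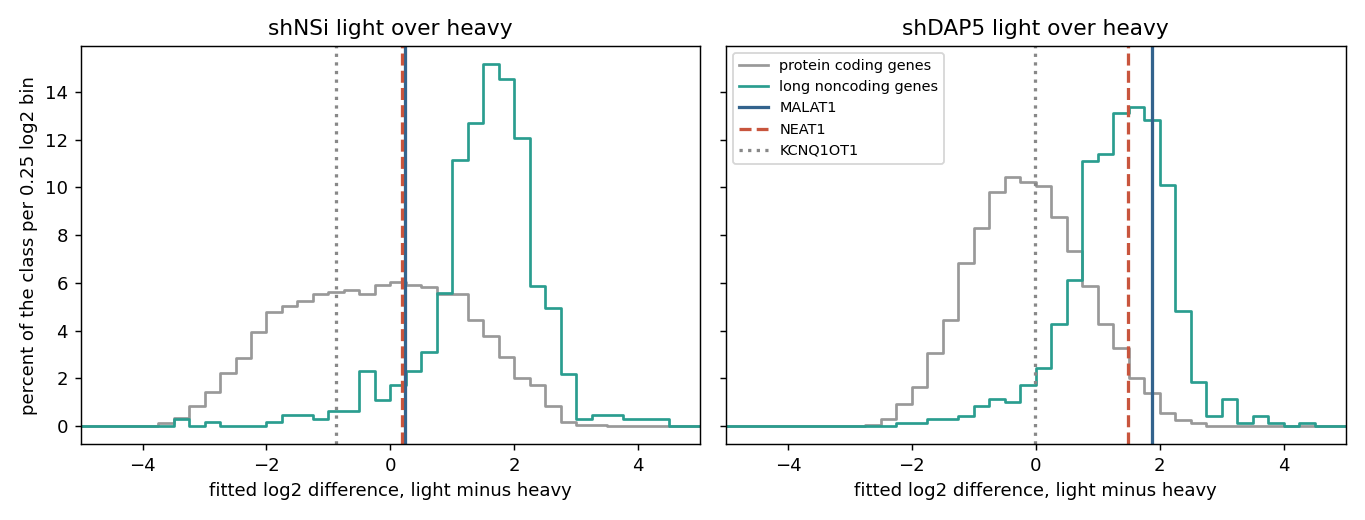
Share of protein-coding (grey) and long noncoding (green) genes per bin of fitted log2 difference between light and heavy pools (horizontal axis), for shNSi cells on the left and shDAP5 cells on the right; vertical lines mark MALAT1 (solid), NEAT1 (dashed) and KCNQ1OT1 (dotted). All genes that passed the filter are drawn, those that passed through light or total libraries alone included, and over them the long noncoding medians are 1.61 in shNSi and 1.44 in shDAP5 cells; MALAT1 and NEAT1 lie near 0 in shNSi and further right in shDAP5 cells.

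The members are longer than most noncoding genes, and length was therefore set beside the light-to-heavy difference. Over all long noncoding genes that passed the filter, with the limit given above, the median in shNSi cells was 1.92 for 104 genes with an exon union under 1 kb, 1.65 for 404 genes of 1 to 5 kb and 1.41 for 138 genes over 5 kb. In shDAP5 cells the medians were 1.5, 1.36 and 1.46. Spearman's rho of length with light over heavy was -0.22 over 646 long noncoding genes in shNSi and -0.07 over 702 in shDAP5, and -0.42 and -0.15 over protein-coding genes, as a description across genes that share libraries.

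Of 10 other largely nuclear long noncoding RNAs, 6 were tested, and TUG1, PVT1, JPX and FTX had the highest levels in total RNA. In light over heavy 5 of 6 rose in shNSi, where 31.9% of all genes did (median 1.30, all genes 0.06), and 5 of 6 in shDAP5, where 24.8% did (median 1.28, all genes 0.02). TUG1, at 131 CPM in total RNA the most abundant of them, did not pass in either line, with 0.31 ± 0.29 (edgeR, adjusted p = 0.351) and 0.04 ± 0.19 (adjusted p = 0.870). Scaled to library size it was at 0.79 in shNSi (adjusted p = 0.0235), where the median of all genes was 0.54. Between heavy pools of shDAP5 and shNSi 0 of 6 were called by edgeR, 1 of them at an unadjusted p under 0.05, and 0 by DESeq2, where 14.2% of all genes rose by edgeR, with a median of 0.49 (all genes 0.09) and values from 0.35 to 0.82, while MALAT1 and NEAT1 were below 0. Scaled to library size 1 of the 6 rose. In shDAP5 heavy over total, where 1.08% of all genes fell, 1 of 6 fell, with a median of -0.57 (all genes -0.02).

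Of the 12 largely cytoplasmic long noncoding RNAs, which include snoRNA host genes and NORAD, a long RNA that binds Pumilio proteins, 10 rose in light over heavy in shNSi, where 31.9% of all genes did (median 2.10, all genes 0.06), and 11 in shDAP5, where 24.8% did (median 1.90, all genes 0.02). In the heavy pool of shDAP5 against shNSi 6 of 12 rose and 0 fell, with a median of 0.92, where 14.2% of all genes rose, and 3 rose without shNSi culture 1, where 23.7% of all genes were called, 4 without shNSi culture 2, where 14.1% were, and 0 without shDAP5 culture 2, where 0.0134% were. GAS5, a snoRNA host, rose there by 1.19 ± 0.34 on the log2 scale (edgeR, adjusted p = 0.00352), a call lost without shNSi culture 1 (0.95, adjusted p = 0.0733) and without shDAP5 culture 2 (0.96, adjusted p = 0.155), while NORAD was at -0.44 ± 0.34 (adjusted p = 0.321). In light over heavy NORAD was at -0.23 ± 0.29 in shNSi (adjusted p = 0.495; 0.25 when scaled to library size) and rose by 1.15 ± 0.22 in shDAP5 (adjusted p = 0.00163), and the difference between lines was 1.33 ± 0.45 (adjusted p = 0.0715; called by DESeq2, 1.38, adjusted p = 0.0132). The ratio of MALAT1 to NORAD reads ran from 0.029 in shDAP5 heavy culture 2 to 0.075 in shDAP5 total culture 1.

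Small noncoding RNAs were set beside the members. Of 13 small nuclear and nucleolar RNAs and their relatives, 6 were tested in shDAP5 heavy over total, where 1 fell and 0 rose, with a median of -2.13. In shNSi heavy over total 4 of 5 tested fell, with a median of -2.14, where 14.8% of all genes fell. Members with few reads in the pools entered through total RNA and so had to lie lower in the pools, and these counts support no direction of the list. RN7SK, the RNA that holds the elongation factor P-TEFb inactive, had 6 and 7 reads in shNSi heavy and 17 and 50 in shDAP5 heavy, so it entered that comparison through shDAP5 and no test of it is given. RPPH1, the RNA subunit of RNase P, had 10 and 12 reads in shNSi heavy and 26 and 64 in shDAP5 heavy. It likewise entered through shDAP5, and no test of it between heavy pools of the lines is given. RN7SL1, an RNA of the signal recognition particle, rose there by 2.32 ± 0.51 (adjusted p = 0.000173; 0.0992 without shDAP5 culture 2). In total RNA of shDAP5 against shNSi the differences were 1.32 ± 0.38 for RPPH1 (adjusted p = 0.166) and 1.78 ± 0.35 for RN7SL1 (adjusted p = 0.0584; DESeq2 called it, 1.77, adjusted p = 0.000356). Their differences between lines in heavy over total were 0.58 ± 0.78 (adjusted p = 0.667) and 0.62 ± 0.47 (adjusted p = 0.391). The 2 RNAs of the signal recognition particle fell in heavy over total in either line, with medians of -2.51 in shNSi, where 14.8% of all genes fell, and -2.23 in shDAP5, where 1.08% did. RN7SL1 has many near-identical copies, so its counts are uncertain. Whether the reads of any of them in a pool come from ribosome-bound molecules was not tested.

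Genes whose proteins build paraspeckles on NEAT1 lay toward the heavy pool. In light over heavy 11 of 14 fell in shNSi (median -2.13), where 33.8% of all genes did, and 13 of 14 in shDAP5 (median -1.13), where 25.9% did, and none rose. In the heavy pool of shDAP5 against shNSi 6 of 14 fell and 0 rose, with a median of -0.67 beside 0.09 for all genes, of which 16.7% fell. This count fell to 1 without shNSi culture 2, where 14.1% of all genes were called, to 2 without shDAP5 culture 1, where 19.9% were, and to 0 without shDAP5 culture 2, where 0.0134% were, with medians from -0.85 to -0.58. NONO, a core paraspeckle protein, fell there by 1.16 on the log2 scale (SE 0.38, edgeR adjusted p = 0.0125), with adjusted p = 0.123 without shNSi culture 2, 0.0747 without shDAP5 culture 1 and 0.164 without shDAP5 culture 2, and HNRNPA1 was at 0.09 ± 0.38 (adjusted p = 0.872). In total RNA 0 of 14 were called by edgeR or DESeq2 and 0 were at an unadjusted p under 0.05, with a median of -0.14.

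Of 10 genes for nuclear speckle proteins, where MALAT1 resides, 4 fell and 1 rose in the heavy pool of shDAP5 against shNSi (median -0.27), and 4 fell and 1 rose in light over heavy of shDAP5 (median -0.24). Of all genes 30.9% and 50.7% were called in these comparisons, so the second count was at the background. Scaled to library size 1 fell and 2 rose in the first comparison (median -0.03) and 4 fell and 3 rose in the second (median -0.04), beside medians of 0.34 and 0.22 for all genes. The 12 genes for RNase P subunits, ELAC2 and METTL16, which act on the 3′ ends and triple helices of MALAT1 and NEAT1, had 2 lower and 5 higher in the heavy pool of shDAP5 against shNSi (median 0.64), where 16.7% of all genes fell and 14.2% rose. Without shNSi culture 2, where 14.1% of all genes were called, 1 speckle gene fell and 2 of the 12 rose, and without shDAP5 culture 2, where 0.0134% were, 0 of either list were called. In total RNA none of either list was called by edgeR or DESeq2, with medians of 0.09 and -0.07, and 0 of 10 and 2 of 12 were at an unadjusted p under 0.05.

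Genes around the members were not called in total RNA by edgeR or DESeq2 with all cultures in. Of 12 genes beside NEAT1 and MALAT1, 11 were tested and 0 called, 1 at an unadjusted p under 0.05, with a median of -0.22, and of 12 genes of the imprinted domain of KCNQ1OT1 8 were tested and 0 called, 5 at an unadjusted p under 0.05, with a median of 0.21. Of all 14992 genes tested there, 0.354% were called and 1799 were at an unadjusted p under 0.05. Between heavy pools of the lines 1 of the 11 fell and 1 rose, and 3 of the 8 rose and 0 fell, where 16.7% of all genes fell and 14.2% rose.

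The genes whose levels followed each member most closely were taken by Pearson's r of log2 of CPM plus 1 over the 14 libraries, among about 9388 genes with a mean of at least 10 CPM. For MALAT1 they were ENTPD4 (0.88), ZNF850 (0.88), ARHGAP11B (0.88), OIP5-AS1 (0.86), itself a long noncoding RNA, and MEGF9 (0.86). For NEAT1 they were FAM20B (0.80), FTL (0.77) and FTH1 (0.77), the ferritin chains, MALAT1 (0.76) and ANKRD9 (0.76). For KCNQ1OT1 they were BOD1L1 (0.89), FBN1 (0.89), FAT1 (0.88), URB1 (0.88) and HERC2 (0.87), whose exon unions run from 11461 to 20163 bases. With CPM scaled to library size 3 of the 5 genes were shared for MALAT1, 3 for NEAT1 and 2 for KCNQ1OT1, KIAA0319L led for NEAT1 (0.82), MALAT1 left its 5, and NORAD entered those of MALAT1 (0.91). The libraries share cultures and pools, so these values describe the 14 libraries only, and those of KCNQ1OT1 rest on 6 to 21 reads.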

How the data were processed

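RNA was sequenced from 14 libraries of MDA-MB-231 cells, 2 cultures in each of 7 groups, grouped by the sample titles. The authors deposited whole-number read counts per gene symbol, without normalization. The submitters' processing notes name STAR 2.6.0a, hg19 and limma, without saying what each was used for. The name of the deposited counts points to featureCounts and to reverse-strand counting, and the counter's settings, the annotation and the RNA selection are not given in the sources used here. Of 58434 symbols 37621 matched a GENCODE 29 gene name (GRCh38), the source of positions, classes, lengths and transcript ends.

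Counts were filtered with filterByExpr (minimum count 10), scaled by TMM and tested two-sided in R 4.3.3 by edgeR 4.0.16 (robust quasi-likelihood fits), with Benjamini-Hochberg adjustment over all genes tested and a threshold of 0.05. Lines were compared in 4 libraries per fraction, differences between lines in 8 libraries with a term for each culture and a pool by shRNA interaction, and pools in all libraries of 1 line with a term for each culture. The pools of a culture share its number and run code. Culture numbers did not tie the lines together, as the replicate differences correlated at -0.129, 0.0543 and 0.0581 between lines in total, light and heavy libraries. Culture ratios of the members under TMM used CPM without an added 1. Those on library size and the class medians by culture used log2 of CPM plus 1, and the fits used counts. The script was tested on simulated data. Alternatives were DESeq2 1.42.0, library size without TMM, no filter, limma 3.58.1 on quantile-normalized log2 values, blocks by replicate number, all libraries in 1 fit, other shNSi control pools, and each culture left out. The last control pools for heavy libraries and the light-over-heavy difference between lines were added after the data were seen, as were the gene lists under other scalings and with a culture left out.

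The members and gene lists were chosen with earlier results of these data known. Genes named are the 3 members, EIF4G2, markers of the line, up to 4 members of each list by level in total RNA (1 gene that met this rule is not reported here), and the 5 genes most like each member. RPPH1 and NORAD are list members, and NORAD, outside that rule, was singled out after its values were seen. ZNRD2 was matched under its older symbol. The 15 mitochondrially encoded symbols were not analysed here. Library totals were 25899838 or more. Each group has 2 cultures, which limits all tests, and KCNQ1OT1 has few reads.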

Additional observations from a re-analysis of the deposited data

Results flagged for a closer look

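MALAT1 in light over total was singled out because its cultures moved in opposite directions in the lines. The log2 ratio was -0.20 and -0.08 in the shNSi cultures and 0.52 and 0.80 in the shDAP5 cultures. The difference between lines was 0.79 ± 0.23 (SE) on the log2 scale, and the test of the difference did not pass (edgeR quasi-likelihood test, unadjusted p = 0.00465, adjusted p = 0.879). Groups of 2 cultures were too small to look for outlying libraries.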

How the results depend on the processing

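Each group had 2 cultures, and that limits most values here, while 6 to 21 reads limit KCNQ1OT1. Values are log2 differences from edgeR unless another tool is named, and the causes of changes were not tested. The light-over-heavy calls of MALAT1 and NEAT1 in shDAP5, and that of NEAT1 in shDAP5 heavy over total, kept their direction under all alternatives run and were lost only where a shDAP5 culture was left out. Of 283 values under alternatives that kept all cultures, 243 kept direction and side of the threshold, and of 126 with a culture left out 89 did. Most member values were not called in the main fits, so most of those kept stayed without a call. KCNQ1OT1 makes up 81 of the 243 and 34 of the 89, comparisons not tested here included. DESeq2 gave no adjusted p for most KCNQ1OT1 comparisons, which have no value there.

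With library size in place of TMM the median of all genes moved by more than 0.1 in several comparisons, most in shNSi light over heavy, from 0.06 to 0.54. On that scale MALAT1 in total RNA was 0.012, NEAT1 in the light pools 0.081 and NEAT1 in the heavy pools -1.02 (no longer called, adjusted p = 0.103). In shNSi NEAT1 passed in moderate over total (-1.31) and heavy over total (-1.21), and MALAT1 in light over moderate (0.91) and light over heavy (0.73). KCNQ1OT1 turned to -0.037 in shNSi heavy over total and to 0.20 in shDAP5 light over heavy. With DESeq2 3 more values passed, MALAT1 in the line difference of light over heavy (1.64) and in shDAP5 heavy over total (-1.22), and NEAT1 in shNSi moderate over total (-1.19). With no filter MALAT1 passed in the line difference of light over heavy (1.63), shNSi moderate over total (-0.88), shNSi light over moderate (0.71), shDAP5 light over total (0.62) and shDAP5 heavy over total (-1.21), and NEAT1 in shNSi moderate over total (-1.20) and heavy over total (-0.72). With limma on quantile-normalized values NEAT1 in the heavy pools lost its call (-0.98, adjusted p = 0.0520) and in the light pools was at 0.049. MALAT1 passed in the line difference of light over heavy (1.45) and shDAP5 heavy over total (-1.18), NEAT1 in shNSi heavy over total (-1.06), and KCNQ1OT1 in shNSi light over heavy (-0.50), while its value in shDAP5 light over total (-0.43) is no call, since it entered through total RNA, and KCNQ1OT1 in shNSi light over moderate was -0.10. With all 14 libraries in 1 fit the line difference of light over heavy passed for MALAT1 (1.69) and NEAT1 (1.34), and NEAT1 passed in shNSi moderate over total (-1.21).

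With the replicate block MALAT1 passed in the line difference of light over heavy (1.59, adjusted p = 0.0480), NEAT1 in the heavy pools kept its call (-1.10, adjusted p = 0.00548), and no other call of a member changed. Without the term for the culture (no replicate block) KCNQ1OT1 in shDAP5 light over heavy was 0.019. With shNSi moderate in place of shNSi light, MALAT1 passed in the light pools (1.48) and in the line differences of light over total (1.55) and light over heavy (2.32), and NEAT1 was 0.55, 0.99 (called) and 1.8 (called) in the same 3. NEAT1 in the heavy pools was -0.90 (adjusted p = 0.679) against shNSi moderate and -1.10 (adjusted p = 0.0707) against heavy and moderate summed. These fits called 0.344% and 2.77% of all genes.

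Leaving out a culture in turn gave these ranges. For shDAP5 against shNSi they were -0.22 to 0.15 for MALAT1 and -0.20 to 0.43 for KCNQ1OT1 in total RNA, 0.62 to 0.85 for MALAT1, -0.26 to 0.23 for NEAT1 and -1.0 to 0.050 for KCNQ1OT1 in light pools, and -1.60 to -0.16 for MALAT1 and -2.0 to -0.29 for NEAT1 in heavy pools. Line differences ran from -1.42 to -0.095 for MALAT1 and -1.77 to 0.20 for NEAT1 in heavy over total, from 0.65 to 0.91 for MALAT1 and -0.0012 to 0.69 for NEAT1 in light over total, and from 0.93 to 2.32 for MALAT1, 0.57 to 1.76 for NEAT1 and -0.13 to 1.8 for KCNQ1OT1, as a value with no test, in light over heavy. In shNSi they were -1.74 to -0.62 for NEAT1 in moderate over total, and -1.14 to 0.16 for MALAT1, -1.84 to 0.10 for NEAT1 and -0.45 to 1.00 for KCNQ1OT1 in heavy over total. Light over moderate gave -0.56 to 0.73 for KCNQ1OT1, and moderate over heavy -0.72 to 0.10 for NEAT1. Light over heavy gave -0.28 to 0.91 for MALAT1, -0.30 to 0.92 for NEAT1 and -1.85 to 0.11 for KCNQ1OT1. In shDAP5 they were -2.07 to -1.20 for NEAT1 in heavy over total and, in light over heavy, 1.22 to 2.58 for MALAT1, 1.17 to 1.76 for NEAT1 and -0.40 to 0.26 for KCNQ1OT1.

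The counts of genes called, the background for the members, moved more. Between lines they were 53 (0 to 577 over the alternatives) in total RNA, 0 (0 to 4678) in light and 4414 (2 to 4710) in heavy pools, and the line differences gave 2012 (0 to 4515) in heavy over total, 0 (0 to 4367) in light over total and 1072 (0 to 3762) in light over heavy. In shNSi they were 2255 (0 to 3287), 591 (0 to 1402) and 5677 (0 to 6630) for light, moderate and heavy over total, 4205 (0 to 5240) for light over moderate and 5591 (2804 to 7153) for moderate over heavy, with 10184 (7669 to 10769) for light over heavy. In shDAP5 they were 5035 (0 to 5484) and 169 (0 to 608) for light and heavy over total and 7922 (3264 to 8235) for light over heavy.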
